A study of Mus musculus with 20 samples.

Results

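The 10 genes described here accompany the step from spermatogonial stem cell to differentiating spermatogonium, and all histone marks and the RNA of the series were read at each of them. They were chosen by name and matched by symbol, and all 10 of 10 were found among the 25965 genes of the chromatin table and the 25067 genes of the RNA table. The cells were mouse germline stem cells (GSCs), cultured spermatogonial stem cells kept on fibroblast feeder cells. Knockout cells (Kmt2bFC/FC) and control cells (Kmt2bF/F) both derive from floxed Kmt2b GSCs that carry Rosa26-CreERT2, a Cre recombinase switched on by 4-hydroxytamoxifen (4-OHT) and expressed from a broadly active locus. Knockout cells received 4-OHT at 1 μM and control cells only ethanol, and both were collected 6 days after the treatment. KMT2B is a methyltransferase that places H3K4me3, so the comparison asks what its loss does to the marks and to the RNA of these genes. Each of H3K4me3, H3K27me3, input DNA and RNA was measured in 2 knockout and 2 control libraries from duplicate cell lines. H3K9me3 and 2 inputs of its own were measured in Kmt2bF/F cells alone, in 2 libraries each, and the treatment of those cells is not given. Knockout and 4-OHT exposure cannot be told apart in any comparison. The p-values measure only spread between the 2 libraries of a group, which limma pools over genes of like level. For RNA the gene's own spread counted in part. For H3K4me3, H3K27me3 and input the pooled spread was used alone, so a gene whose libraries differ widely is not judged more strictly.

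Spermatogonial stem cells first give rise to transit-amplifying progenitors, which still count as undifferentiated and which express Neurog3, Nanos3 and Lin28a. Retinoic acid then moves progenitors to the differentiating state, in which the receptor KIT and the meiotic gatekeeper STRA8 appear and D-type cyclin use changes. The transcription factors SOHLH1, SOHLH2 and DMRT1 stand between these states. H3K4me3 marks the start sites of active or poised genes, H3K27me3 is laid down by Polycomb complexes at silenced developmental genes, a promoter with both is called bivalent, and H3K9me3 marks heterochromatin.

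The promoters of the genes on which the results turn are printed first. They come from RefSeq (GRCm38.p6, the assembly also called mm10), run from 250 bases before to 50 bases after the start, and have each CpG in capitals, since KMT2B carries a CXXC domain that binds unmethylated CpG. Kit is shown as the gene with a lower H3K4me3 call and both marks, Neurog3 as the gene whose RNA rose, Esx1 and Stra8 as those whose RNA fell, and Nanos3 as a CpG-poor promoter with little of the mark.
Kit, chr5:75574737-75575036, plus strand: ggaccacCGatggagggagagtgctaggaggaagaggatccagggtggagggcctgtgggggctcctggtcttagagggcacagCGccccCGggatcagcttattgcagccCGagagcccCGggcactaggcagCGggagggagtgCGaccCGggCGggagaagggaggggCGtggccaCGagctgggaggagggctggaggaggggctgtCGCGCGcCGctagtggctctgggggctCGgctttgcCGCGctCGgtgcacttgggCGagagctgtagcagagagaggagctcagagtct
Neurog3, chr10:62132840-62133139, plus strand: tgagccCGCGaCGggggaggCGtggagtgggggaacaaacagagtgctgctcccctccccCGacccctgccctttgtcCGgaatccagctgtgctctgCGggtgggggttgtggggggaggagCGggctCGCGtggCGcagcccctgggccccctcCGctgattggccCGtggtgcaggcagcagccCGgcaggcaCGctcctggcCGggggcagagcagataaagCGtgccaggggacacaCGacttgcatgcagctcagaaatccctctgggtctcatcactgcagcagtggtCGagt
Esx1, chrX:137120277-137120576, minus strand: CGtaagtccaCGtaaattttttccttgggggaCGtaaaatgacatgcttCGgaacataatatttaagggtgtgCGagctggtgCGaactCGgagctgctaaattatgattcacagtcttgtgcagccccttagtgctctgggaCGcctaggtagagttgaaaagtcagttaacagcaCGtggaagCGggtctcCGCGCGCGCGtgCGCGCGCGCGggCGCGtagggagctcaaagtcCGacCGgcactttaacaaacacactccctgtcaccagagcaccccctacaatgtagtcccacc
Stra8, chr6:34920698-34920997, plus strand: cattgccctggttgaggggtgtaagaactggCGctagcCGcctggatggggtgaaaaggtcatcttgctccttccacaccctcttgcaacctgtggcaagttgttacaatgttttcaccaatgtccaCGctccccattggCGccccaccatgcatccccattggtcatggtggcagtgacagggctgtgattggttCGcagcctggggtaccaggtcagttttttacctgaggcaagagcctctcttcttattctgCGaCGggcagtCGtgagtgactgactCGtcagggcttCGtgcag
Nanos3, chr8:84176503-84176802, minus strand: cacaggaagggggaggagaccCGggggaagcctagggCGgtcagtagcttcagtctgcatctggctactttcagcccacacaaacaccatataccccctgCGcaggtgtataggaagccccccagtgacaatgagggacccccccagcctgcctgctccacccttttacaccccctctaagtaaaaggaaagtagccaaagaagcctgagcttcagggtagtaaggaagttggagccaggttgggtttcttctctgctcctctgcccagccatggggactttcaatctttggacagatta

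RefSeq promoters were matched for 8 of the 10 genes, and Ccnd2 and Dmrt1 were not in the promoter table. Kit held 20 CpG in the 300 bases, Neurog3 19, Sohlh2 17, Sohlh1 14, Lin28a 10 and Stra8 10, against a median of 7 over all 32851 promoters of the table. Nanos3 held 3. Esx1 held 24, and its ratio of observed to expected CpG was 1.1, against 0.621 at Kit, 0.547 at Neurog3, 0.430 at Stra8, 0.131 at Nanos3 and a median of 0.384 over all promoters. A ratio of at least 0.6 was met by Esx1 and Kit among the 8, and by 35.8% of all promoters.

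The gene start in the deposited table was not always the RefSeq one printed here. The RefSeq start of Stra8 lay 785 bases downstream of the files' start, and that of Esx1 lay 1757 bases downstream, whereas those of Neurog3, Nanos3 and Sohlh1 were identical. Size and place of the authors' windows are not given in the sources used here, so the printed stretch of Stra8 and of Esx1 may lie outside them. The marks given for Stra8 and Esx1 may then not be those at the RefSeq start. The letters CANNTG, the E-box recognised by basic helix-loop-helix factors such as NEUROG3, SOHLH1 and SOHLH2, read the same on both strands. They occurred 5 times at Sohlh1, 2 times at Nanos3, 1 time each at Neurog3, Kit, Sohlh2 and Esx1, and 0 times at Lin28a and Stra8. At least 1 E-box was present in 72.3% of all promoters and at least 5 in 2.1% of them.

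Depth differed most among the H3K4me3 libraries. Mapped reads, worked out from the size of 1 read in each library, numbered 3830045 to 18035122 in H3K4me3, 10538531 to 14810135 in H3K27me3 and 10967790 to 14405261 in the inputs of those marks. H3K9me3 libraries held 41099186 and 50657508 reads, and RNA libraries 38458010 to 45771857. The lowest of all was H3K4me3 knockout replicate 1, where 1 read was worth 0.261 RPM (a read number scaled by the library's total of mapped reads), so its values at weakly marked genes rest on few reads. Kmt2b itself, listed under its older symbol Wbp7, had 131 and 185 RPM of RNA in knockout cells and 142 and 150 RPM in control cells. A total over the whole gene can hide the loss of an exon, which leaves the deletion unchecked here. Of 11 germ cell markers 0 were below 1 RPM in every library, and their summed RNA level was 1896 and 2083 RPM in knockout cells against 1981 and 1924 RPM in control cells. Limma called 3 of them higher, Nanos2 and Gfra1 among them, and 0 lower, beside 3.01% and 0.312% of all tested genes. Feeder fibroblast markers summed to 458 and 591 RPM in knockout cells and 418 and 448 RPM in control cells over 10 genes, with Fap below 1 RPM and 2 genes called higher. Of 9 Sertoli and Leydig markers, Amh, Kitl, Hsd3b1 and Cyp17a1 were below 1 RPM in every RNA library, and the sum was 21.6 and 26.5 RPM in knockout cells and 21.6 and 20.5 RPM in control cells. Of 5 blood and macrophage markers Ptprc, Csf1r and Tyrobp were below 1 RPM in every library, with a sum of 4.85 and 4.72 RPM in knockout cells and 3.59 and 3.94 RPM in control cells. The 5 meiotic spermatocyte markers summed to 371 and 371 RPM in knockout cells and 407 and 381 RPM in control cells. In such bulk samples fewer cells of a type and less RNA per cell cannot be told apart.

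The RNA of the 10 genes moved in both directions. Neurog3 rose in knockout cells, while Stra8 and Esx1 fell, and the other 7 genes did not pass the test. Differences were tested with limma on the deposited log2 values, two-sided, with Benjamini-Hochberg adjustment over the 14100 genes whose mean log2 RPM was 0 or more, and genes with an adjusted p under 0.05 were called. With 1 gene called higher and 2 called lower of 10, the background was 3.01% of all tested genes called higher and 0.312% called lower. Over the 10 genes the median log2 change was -0.0043, against 0.06 over all tested genes.

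**Figure D1:**
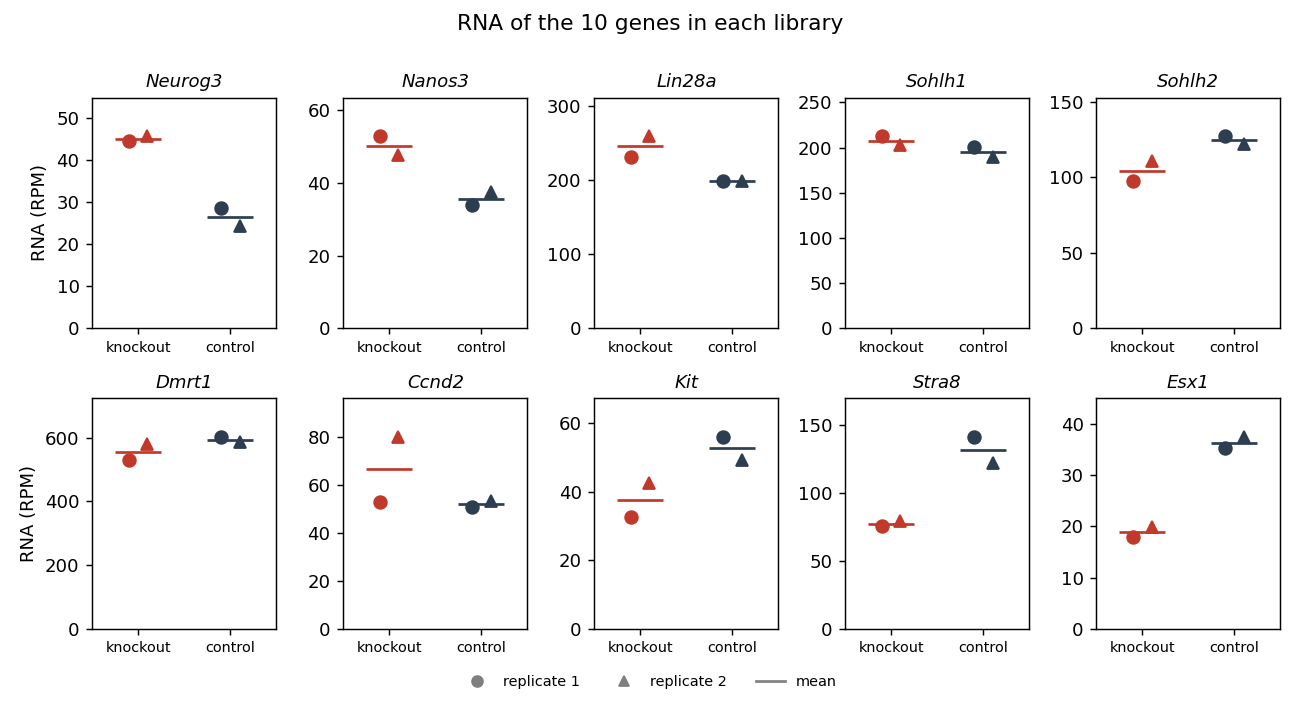
RNA level in RPM (vertical axes, each from 0) of the 10 genes in the 2 knockout and 2 control libraries; circles are replicate 1, triangles replicate 2, and lines the group means. Neurog3, Nanos3 and Lin28a lie higher in both knockout libraries, Kit, Stra8 and Esx1 lie lower in both, and for Ccnd2 knockout replicate 2 stands alone at 79.9 RPM.

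Neurog3 encodes a basic helix-loop-helix transcription factor that marks transit-amplifying progenitors (mm10 chromosome 10, 62133090 to 62134763). It had 44.5 and 45.7 RPM of RNA in knockout cells, against 28.6 and 24.2 RPM in control cells. Both knockout libraries lay well above both control libraries. The mean was 45.1 ± 0.888 RPM in knockout and 26.4 ± 3.07 RPM in control cells (SD, n = 2 each), a 1.71-fold rise (95% interval 1.42 to 2.06) with a log2 change of 0.78 (SE 0.11, limma adjusted p = 0.0255). Without control replicate 2 the log2 change was 0.66 and the call was lost (limma adjusted p = 0.132), as it was under quantile normalization at 0.73 (adjusted p = 0.0546). It held under the other 8 of 10 alternatives, with log2 changes over all 10 from 0.66 to 0.90. These 8 include the fits without 1 knockout library. Such fits take their spread from the control pair alone and called a large share of all genes, so a call there adds little.

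Nanos3 and Lin28a, both RNA-binding proteins of undifferentiated germ cells, had higher levels in both knockout libraries without passing the test. Nanos3, which belongs to a family of translational regulators needed for germ cell maintenance (chromosome 8, 84173733 to 84176552), had 52.9 and 47.7 RPM in knockout cells and 34.0 and 37.4 RPM in control cells. The groups did not overlap, and the log2 change was 0.49 (SE 0.11, 95% interval 0.24 to 0.75, limma adjusted p = 0.0590). Over 10 alternatives the log2 change ran from 0.40 to 0.57. Nanos3 was called in the fits without 1 knockout library, but these called a large share of all genes, so this adds little. Lin28a, which blocks maturation of the let-7 microRNAs (chromosome 4, 134003330 to 134018841), had 232 and 260 RPM in knockout cells and 199 and 199 RPM in control cells. Its log2 change was 0.30 (SE 0.10, limma adjusted p = 0.153). A transcript on the opposite strand, Gm13061, overlaps the start of Lin28a. It had 0.175 and 0.40 RPM in knockout cells and 0.182 and 0.113 RPM in control cells. The strand setting of the counting is not stated, and its part in the Lin28a value was not tested.

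None of the 3 factors that prepare differentiation passed the test. Sohlh1 and Sohlh2 encode a pair of basic helix-loop-helix proteins that act together and are needed for differentiating spermatogonia. Sohlh1 (chromosome 2, 25842995 to 25847248) had 213 and 202 RPM in knockout cells and 200 and 190 RPM in control cells, a log2 change of 0.09 (SE 0.09, limma adjusted p = 0.655) that turned to -0.01 under median centring. Sohlh2 (chromosome 3, 55182028 to 55209957) had 97.8 and 110 RPM in knockout cells and 127 and 122 RPM in control cells. Both knockout values of Sohlh2 were below both control values, with a log2 change of -0.26 (SE 0.10, limma adjusted p = 0.209). Dmrt1 (chromosome 19, 25505618 to 25604329), a DM-domain factor that keeps spermatogonia from entering meiosis early, had 531 and 580 RPM in knockout cells and 603 and 585 RPM in control cells. Its log2 change was -0.10 with a 95% interval of -0.32 to 0.13 (limma adjusted p = 0.640).

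Among genes of the differentiating state, Stra8 fell, and Kit and Ccnd2 were not called. Stra8, which retinoic acid switches on and which is needed for entry into meiosis (chromosome 6, 34920163 to 34939342), had 75.9 and 78.9 RPM in knockout cells against 141 and 122 RPM in control cells. The knockout libraries lay close together and far below both control libraries. Its mean fell to 77.4 ± 2.12 RPM in knockout cells, against 132 ± 13.6 RPM in control cells (SD, n = 2 each), or 0.590-fold (95% interval 0.496 to 0.701; log2 change -0.76, SE 0.11, limma adjusted p = 0.0230). Without control replicate 1 the log2 change was -0.66 and the call was lost (limma adjusted p = 0.185). It held under the other 9 of 10 alternatives, which include the fits without 1 knockout library, where a call adds little. Over all 10 the log2 change ran from -0.87 to -0.66.

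Kit encodes the receptor tyrosine kinase for stem cell factor (chromosome 5, 75574916 to 75656722). Its RNA was 32.7 and 42.5 RPM in knockout cells and 56.0 and 49.2 RPM in control cells. The groups did not overlap, but the log2 change of -0.50 (SE 0.14, 95% interval -0.84 to -0.15) did not pass the test (limma adjusted p = 0.122). It did under median centring (log2 change -0.59, limma adjusted p = 0.0470), and in the fits without 1 knockout library, where a call adds little. Over 10 alternatives the log2 change ran from -0.68 to -0.31. Ccnd2, a D-type cyclin whose level goes up when spermatogonia begin to differentiate (chromosome 6, 127125779 to 127151048), had 52.8 and 79.9 RPM in knockout cells and 50.6 and 53.3 RPM in control cells. Knockout replicate 1 sat among the control libraries and replicate 2 far above them, and the log2 change was 0.32 (SE 0.18, limma adjusted p = 0.381). Feeder markers were also highest in knockout replicate 2, at 591 RPM, and cyclin D2 is also made by fibroblasts. The part of the feeder cells in this value was not tested. RefSeq also lists a long noncoding RNA gene that overlaps Ccnd2, and without a stated strand setting their reads cannot be told apart.

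Esx1, an X-linked paired-like homeobox gene expressed in male germ cells and placenta (chromosome X, 137115397 to 137122083), had the largest decrease of the 10. It had 18.0 and 19.8 RPM in knockout cells against 35.2 and 37.5 RPM in control cells, and the groups were far apart. The mean fell to 18.9 ± 1.29 RPM in knockout cells, against 36.3 ± 1.61 RPM in control cells (SD, n = 2 each), or 0.519-fold (95% interval 0.437 to 0.617; log2 change -0.95, SE 0.11, limma adjusted p = 0.0204). Esx1 was called lower under all 10 alternatives run, with log2 changes from -1.04 to -0.88. These 10 include the fits without 1 knockout library, where a call adds little.

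Counting libraries instead of calls, RNA was higher in both knockout libraries than in both control libraries at 4 genes (Neurog3, Nanos3, Lin28a and Sohlh1) and lower in both at 5 (Kit, Stra8, Sohlh2, Dmrt1 and Esx1). Over all tested genes this was so at 36.2% and at 16.0%. Without adjustment, p in limma was under 0.05 at 3 higher and 4 lower members. Over all 14100 tested genes it was under 0.05 at 2326 higher and 508 lower genes.

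**Figure D2:**
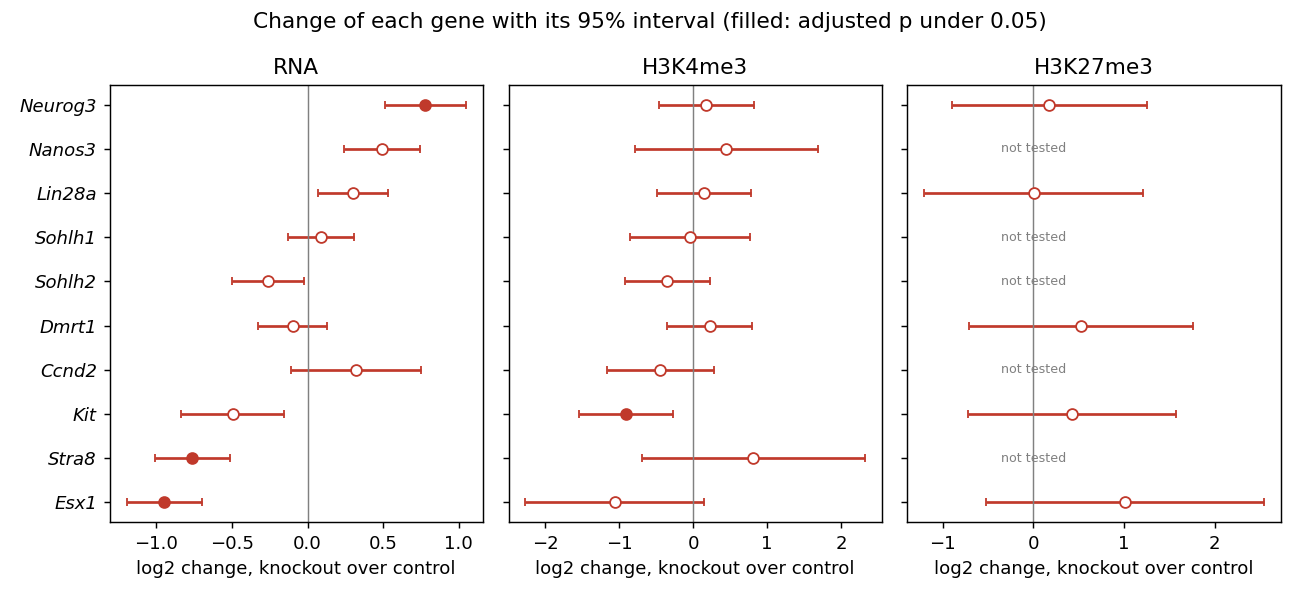
Log2 change of each gene, knockout over control (horizontal axes), for RNA, H3K4me3 and H3K27me3, with 95% intervals from limma; filled points have an adjusted p under 0.05. Neurog3 (0.78), Stra8 (-0.76) and Esx1 (-0.95) are filled for RNA and Kit (-0.91) for H3K4me3, and the intervals of both marks are wider than those of RNA.

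Other spermatogonial genes placed these values among their neighbours in the pathway. Of 25 further genes of stem, progenitor and differentiating spermatogonia, 24 were in the RNA table and all 24 were tested. Limma called 3 of the 24 higher and 0 lower, beside 3.01% and 0.312% of all tested genes. At a limma p under 0.05 before adjustment, 9 were higher and 2 lower, beside 2326 and 508 of all 14100 tested genes. The median log2 change of the 24 was 0.08. The 3 called were Nanos2, Gfra1 and Upp1, while other genes of undifferentiated cells on the list were not called. Some of these were higher in both knockout libraries, with log2 changes of 0.65 at Etv5, 0.52 at Id4, 0.52 at Cdh1 and 0.31 at Bcl6b. Others were flat or lower, with 0.09 at Sall4, 0.04 at Foxo3, -0.16 at Taf4b and -0.38 at Lin28b. Nanos2, an RNA-binding protein that keeps stem cells from differentiating, had 7.03 and 7.84 RPM in knockout cells and 3.72 and 4.08 RPM in control cells (log2 change 0.93, SE 0.14, limma adjusted p = 0.0266). Gfra1, the receptor for the stem cell factor GDNF, had 49.1 and 48.7 RPM in knockout cells and 31.4 and 32.3 RPM in control cells (log2 change 0.62, adjusted p = 0.0265). Upp1, a uridine phosphorylase, had 47.3 and 50.6 RPM in knockout cells and 31.6 and 34.8 RPM in control cells (log2 change 0.56, adjusted p = 0.0401). Under quantile normalization limma called none of the 3, with adjusted p of 0.0708 for Nanos2, 0.0567 for Gfra1 and 0.0644 for Upp1. Gfra1 and Upp1 were also lost without either control library (adjusted p between 0.157 and 0.516), and Upp1 without the filter on low values (adjusted p = 0.0515). Over the 10 alternatives the log2 change ran from 0.70 to 1.01 at Nanos2, 0.52 to 0.64 at Gfra1 and 0.46 to 0.63 at Upp1. The largest decrease among the 24 was at Rec8, a meiotic cohesin subunit that retinoic acid also induces, with 21.7 ± 2.56 RPM in knockout and 30.6 ± 0.412 RPM in control cells (SD, n = 2 each), and it was not called (log2 change -0.50, limma adjusted p = 0.0680).

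**Figure D3:**
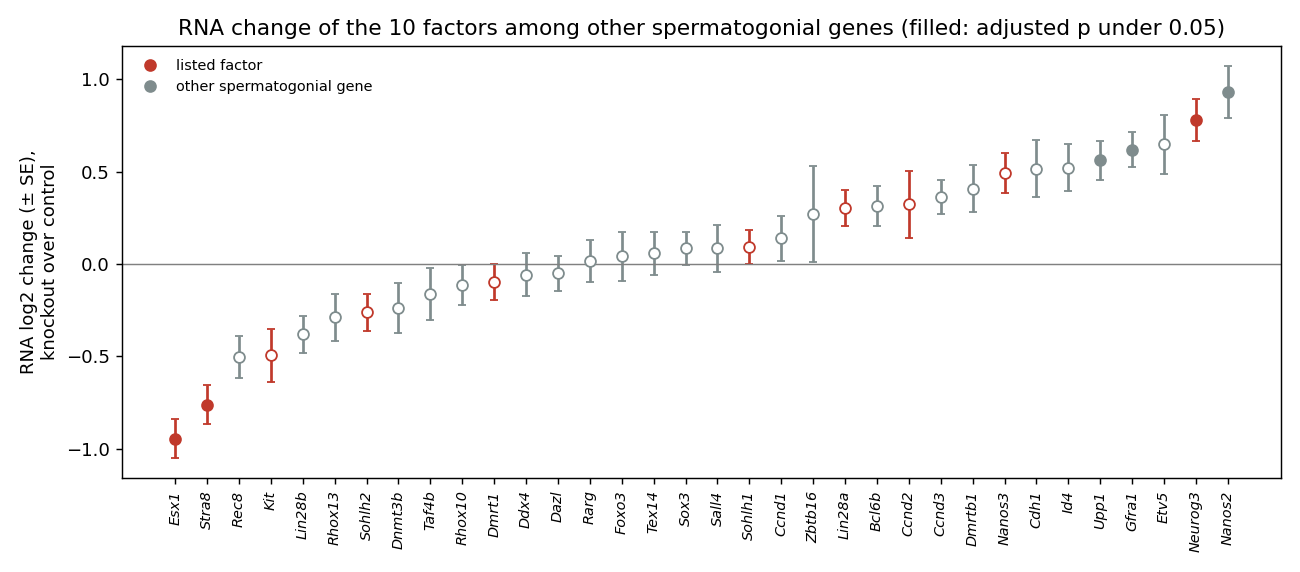
RNA log2 change, knockout over control (vertical axis, bars are standard errors from limma), of the 10 listed factors in red and 24 other spermatogonial genes in grey, ordered by change; filled points have an adjusted p under 0.05. Esx1 (-0.95) and Stra8 (-0.76) lie at the low end and Neurog3 (0.78) near the high end, next to Nanos2 (0.93).

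H3K4me3 was called lower in knockout cells at Kit, and the other 9 genes were not called in either direction. That is 1 of 10 called lower and 0 called higher by limma, and 1 and 0 by limma voom. Of the 15624 windows averaging 1 RPM or more, limma called 9.90% lower and 0.0512% higher, so the share of lower calls was near the background. Before adjustment, 1 of the 10 was lower and 0 higher at a limma p under 0.05, against 3853 and 49 of the 15624 windows. The median log2 change of the 10 was 0.05, against -0.26 over all tested windows. Dropping the shallow knockout library (replicate 1) moved this median over all windows to -0.03. Dropping its partner instead moved it to -0.50, so the size of the general shift depends on the knockout library used. The shallow library also had the smallest share of its mapped reads inside windows, at 20.7%. The share was 27.2% in the other knockout library and 25.6% and 29.0% in the control libraries. Under median centring the median over all windows was 0.03 and under quantile normalization 0.01, so directions near 0 depend on the scaling. Knockout lay below control without overlap at 4 genes (Kit, Sohlh2, Esx1 and Ccnd2) and above at 2 (Stra8 and Dmrt1), while 42.8% and 8.98% of all tested windows did so.

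At Kit the mark was 8.62 and 16.9 RPM in knockout cells, from 33 and 280 reads, against 21.7 and 23.7 RPM in control cells, from 225 and 427 reads. Both knockout libraries lay below both control libraries, but they differed widely from each other. The p-value does not carry this difference, since its spread is pooled over windows of like level. The log2 change was -0.91 (SE 0.32, 95% interval -1.54 to -0.28, limma adjusted p = 0.0483), just inside the threshold. Without the shallow knockout replicate 1 it was -0.43 and not called (adjusted p = 0.232). The call was also lost without control replicate 1 (log2 change -0.97, adjusted p = 0.825) and without control replicate 2 (-0.85, adjusted p = 1.00), where no window at all was called lower. Over input the log2 change was -0.98 (adjusted p = 0.203), and under median centring -0.62 (adjusted p = 0.0519). The call held under 5 of 11 alternatives. Among them was the fit without knockout replicate 2, which called a large share of all windows, so a call there adds little. Over all 11 the log2 change ran from -1.40 to -0.43.

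**Figure D4:**
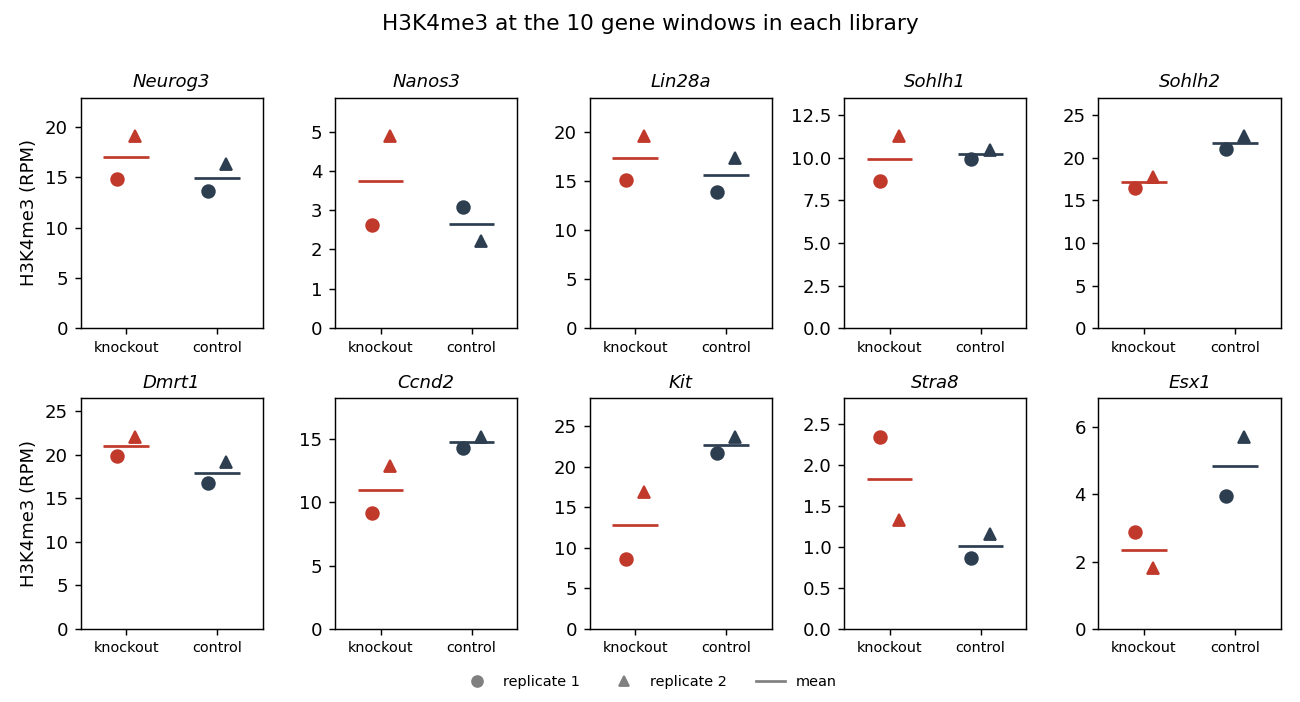
H3K4me3 in RPM (vertical axes, each from 0) in the window of each of the 10 genes in the 2 knockout and 2 control libraries; circles are replicate 1, triangles replicate 2, and lines the group means. Kit lies at 8.62 and 16.9 RPM in the knockout libraries and at 21.7 and 23.7 RPM in the control libraries, while Neurog3, Lin28a and Sohlh1 overlap.

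Among progenitor genes, Neurog3 carried 14.9 and 19.1 RPM of H3K4me3 in knockout cells and 13.6 and 16.4 RPM in control cells. The groups overlapped, and the log2 change was 0.18 with a 95% interval of -0.47 to 0.82 (limma adjusted p = 0.842). Its RNA therefore rose without a detectable change of the mark, at an interval that leaves room for changes up to 1.77-fold. Lin28a had 15.1 and 19.6 RPM in knockout cells and 13.9 and 17.4 RPM in control cells (log2 change 0.15, adjusted p = 0.875), a direction that turned without knockout replicate 2 (-0.04). The start of Gm13061 lies within Lin28a, so that the values of both may not be independent, and Gm13061 had 18.3 and 22.7 RPM in knockout and 17.4 and 21.8 RPM in control cells. Nanos3 was weakly marked, with 2.61 and 4.89 RPM in knockout cells (10 and 81 reads) and 3.09 and 2.22 RPM in control cells (32 and 40 reads). The groups overlapped, and its log2 change was 0.45 (SE 0.63, limma adjusted p = 0.773). Under quantile normalization it was 1.72 and Nanos3 was called higher (adjusted p = 0.0304), and over 11 alternatives the adjusted p ran from 0.0304 to 1.00.

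Among the regulators, none passed the test for H3K4me3. Sohlh1 had 8.62 and 11.3 RPM in knockout cells and 9.94 and 10.5 RPM in control cells (log2 change -0.05, SE 0.41), which turned positive under both other scalings. Dmrt1 had 19.8 and 22.1 RPM in knockout cells and 16.8 and 19.1 RPM in control cells (log2 change 0.22, SE 0.29, limma adjusted p = 0.749). Sohlh2 had 16.4 and 17.8 RPM in knockout cells and 21.0 and 22.6 RPM in control cells, without overlap. Its log2 change of -0.35 (95% interval -0.92 to 0.22) did not pass the test (adjusted p = 0.532).

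Ccnd2 had 9.14 and 12.8 RPM of the mark in knockout cells and 14.3 and 15.2 RPM in control cells (log2 change -0.44, limma adjusted p = 0.531). Esx1 had 2.87 and 1.81 RPM in knockout cells, from 11 and 30 reads, and 3.96 and 5.71 RPM in control cells, from 41 and 103 reads. All knockout values were below the control values at both genes, and the log2 change at Esx1 was -1.06 with a wide 95% interval of -2.27 to 0.15 (adjusted p = 0.282). Under quantile normalization the direction at both turned, to 0.08 at Ccnd2 and 0.18 at Esx1. The window of Stra8 had almost none of the mark, with 2.35 and 1.33 RPM in knockout cells (9 and 22 reads). Control cells had 0.869 and 1.16 RPM there (9 and 21 reads), although Stra8 RNA was well detected. The RefSeq start of Stra8 lay 785 bases downstream of the files' start, so the window may miss it. Both knockout values lay above both control values, and the log2 change of 0.81 (SE 0.77) was not called (limma adjusted p = 0.604). Under quantile normalization it was 2.27 and Stra8 was called higher (adjusted p = 0.0429), and over 11 alternatives the adjusted p ran from 0.0429 to 1.00.

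In control cells the 10 windows spanned the range of the mark. Kit stood at the 73.3 percentile of tested windows by mean control RPM, Sohlh2 at 69.1, Dmrt1 at 48.6, Lin28a at 38.3, Neurog3 at 35.9, Ccnd2 at 35.0, Sohlh1 at 21.2, Esx1 at 8.57, Nanos3 at 3.89 and Stra8 at 0.224. Within control replicate 2 the windows stood in this same order. Within control replicate 1 they did too, except that Ccnd2 (14.3 RPM) lay above Lin28a (13.9 RPM) and Neurog3 (13.6 RPM). Differences between neighbours in the order were not tested. The comparison assumes windows of equal size that cover the start in use, and the sources used here state neither.

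The log2 changes of H3K4me3 and RNA had the same sign at 6 of the 10 genes, whether or not they passed the test. Over the 12124 genes tested in both, this was so at 39.0%. The median log2 change over all tested was -0.26 in H3K4me3 and 0.06 in RNA, so both shares depend on the scaling. Dropping the shallow knockout library moved the H3K4me3 median to -0.03. Neurog3, Nanos3 and Lin28a are among the 6. Without knockout replicate 2 their H3K4me3 changes were -0.0037, -0.0035 and -0.039. At Kit and Esx1 both log2 changes were negative, at Stra8 that of RNA was negative and that of the mark 0.81 (SE 0.77, not called), and none of the 10 was called in both.

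H3K27me3 was low at nearly all of these genes. Of the 10 windows, 5 had a mean of at least 1 RPM and were tested (Kit, Neurog3, Lin28a, Dmrt1 and Esx1). Limma called 0 of them higher and 0 of them lower, against 0.791% and 0% of 4807 tested windows, and limma voom likewise called 0. Before adjustment 0 of them had a limma p under 0.05, against 579 higher and 6 lower of the 4807 windows. Of these 5, 0 had groups that did not overlap, against 36.9% of tested windows with knockout above and 3.14% with knockout below. Their median log2 change was 0.43, against 0.45 over all tested windows, which median centring moved to -0.13, and the values at Kit, Neurog3, Lin28a and Dmrt1 turned negative under median centring and quantile normalization.

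Kit had the most of the mark, with 6.35 and 2.56 RPM in knockout cells, from 94 and 27 reads, and 3.28 and 2.75 RPM in control cells, from 48 and 30 reads. Knockout replicate 1 stood high and replicate 2 lay below both control libraries, and the log2 change was 0.43 (95% interval -0.73 to 1.58, limma adjusted p = 0.846). Neurog3 followed with 2.57 and 1.42 RPM in knockout cells and 1.85 and 1.56 RPM in control cells (log2 change 0.17, adjusted p = 0.946). Esx1 had 1.28 and 0.949 RPM in knockout cells and 1.64 and 0.183 RPM in control cells, the last from 2 reads, so its log2 change of 1.01 (SE 0.78, adjusted p = 0.665) rests on 1 library and was -0.57 without control replicate 2. Lin28a had 1.35 and 1.04 RPM in knockout cells and 1.92 and 0.732 RPM in control cells. Dmrt1 had 1.28 and 1.42 RPM in knockout cells and 1.37 and 0.641 RPM in control cells. The 5 windows that were not tested held between 1 and 13 reads in every library, and differences there were not detectable at this depth.

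Set against input, the genes were sorted into classes by the marks that their windows carried. A window was taken to carry H3K4me3 where the log2 ratio of (RPM + 0.5) over that of the same-numbered input was at least 1.5 in both libraries, and H3K27me3 where it was at least 1. Kit was bivalent in knockout and in control cells. Its H3K4me3 ratios were 2.76 and 4.24 in knockout and 4.84 and 4.11 in control cells, and its H3K27me3 ratios were 2.35 and 1.73 in knockout and 2.29 and 1.21 in control cells. With both thresholds raised by 0.5, or with a pseudocount of 1 RPM, Kit remained bivalent in knockout cells and carried H3K4me3 only in control cells. In these bulk samples the marks of a window can come from different cells, so the class does not show both on the same copy. In knockout cells the windows of 8 genes carried H3K4me3 only and that of Stra8 neither mark. In control cells the windows of 7 genes carried H3K4me3 only, and those of Stra8 and Nanos3 neither. Over all 25965 windows, 7.42% were bivalent in knockout and 7.68% in control cells, and 44.2% and 49.9% carried H3K4me3 only. Nanos3 crossed the threshold, with H3K4me3 ratios of 2.05 and 2.44 in knockout and 2.60 and 1.03 in control cells, through the second control library alone, whose input there was 0.833 RPM against 0.0912 RPM in the first. Neurog3 stood at the edge of the bivalent class, with H3K27me3 ratios of 1.87 and 0.24 in knockout and 1.04 and 0.87 in control cells. Esx1 was an edge case in knockout cells, with H3K4me3 ratios of 2.75, over an input of 0 reads, and 1.56. In those cells it carried neither mark with thresholds raised by 0.5 or a pseudocount of 1 RPM. It was bivalent there with thresholds lowered by 0.5 or on the mean of the pair.

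**Figure D5:**
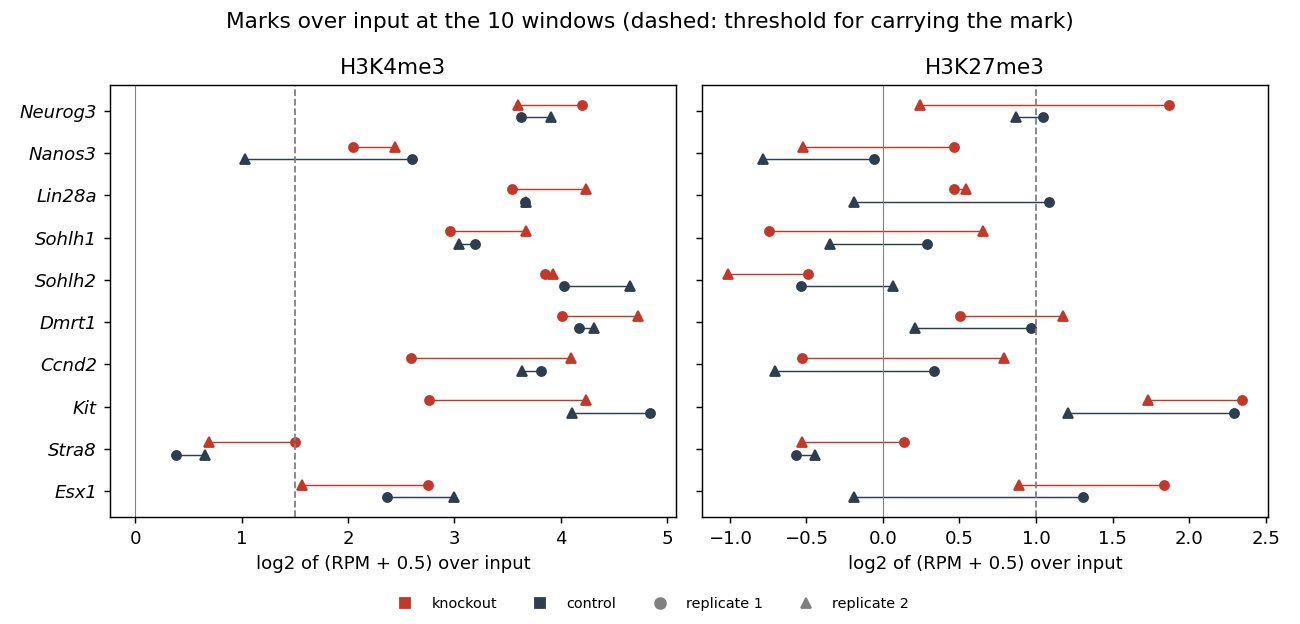
Log2 ratio of H3K4me3 (left) and H3K27me3 (right) to the same-numbered input, with 0.5 RPM added to both, at the 10 genes (vertical axis) in each knockout and control library; dashed lines are the thresholds of 1.5 and 1. Kit lies right of both dashed lines in all 4 libraries of each mark, and Stra8 left of them apart from H3K4me3 knockout replicate 1, which is at the line.

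H3K9me3 was measured in Kmt2bF/F cells alone and was below input at all 10 genes. The log2 ratio of (RPM + 0.5) over the mean of the 2 inputs lay between -0.97 and -0.40 in both libraries, against medians of -0.65 and -0.66 over all windows. Reads per gene and library ran from 0 to 14, with 0 at Nanos3 in replicate 1, which allows up to 0.0730 RPM (3 reads). H3K9me3 was at most 0.276 RPM and its inputs 0.237 to 0.639 RPM. The added 0.5 RPM is of like size and draws these ratios towards 0. No gene was near the ratio of 1, which 1.92% of windows reached in both libraries.

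The same list of other spermatogonial genes was read for the marks. In H3K4me3, 23 of 24 in the table were tested and limma called 0 higher and 0 lower (0 and 4 at an unadjusted p under 0.05), with a median log2 change of -0.38. Over all tested windows 0.0512% were called higher and 9.90% lower. Before adjustment, 49 of the 15624 windows were higher and 3853 lower at a limma p under 0.05. The largest decrease was at Dmrtb1, which encodes another DM-domain factor of spermatogonia, with 5.59 ± 1.99 RPM in knockout and 11.8 ± 0.885 RPM in control cells (SD, n = 2 each; log2 change -1.13, limma adjusted p = 0.0885). The largest increase was at the RNA helicase gene Ddx4 (log2 change 0.46, adjusted p = 0.407). Gfra1 and Upp1, whose RNA rose, had log2 changes of -0.66 and -0.80 in H3K4me3, neither called (adjusted p = 0.255 and 0.278). In H3K27me3, 6 were tested and limma called 0 higher and 0 lower, beside 0.791% and 0% of all tested windows. Ccnd1 alone had a limma p under 0.05 before adjustment, beside 579 higher and 6 lower of all 4807 tested windows. The cyclin gene Ccnd1 had the largest increase, with 1.83 ± 0.101 RPM in knockout and 0.594 ± 0.322 RPM in control cells (SD, n = 2 each; log2 change 1.74, adjusted p = 0.227), and Dmrtb1 the largest decrease (log2 change -0.50, adjusted p = 0.783).

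Input DNA was compared at the same windows as a background. None of the 10 was called by limma (0 at an unadjusted p under 0.05, and 0 of all 15624 windows called by limma or limma voom, with 345 higher and 396 lower before adjustment). The groups overlapped at all 10. Over the 15624 windows they lay apart at 2613 with knockout above and at 2571 with knockout below. Input levels at these windows ran from 0 to 1.12 RPM in knockout and from 0.0912 to 0.902 RPM in control cells, from at most 16 reads.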

How the data were processed

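ChIP-seq of H3K4me3, H3K27me3, H3K9me3 and input DNA and RNA-seq were compared at 10 genes. The authors deposited log2 RPM per gene. CASAVA 1.8, Trim Galore 0.4.0, Bowtie 1.1.1, TopHat2 2.0.14 and the build mm10 are named in the submitters' processing notes. Window size and strand setting are not given in the sources used here. RPM is not divided by length, so levels are not compared between genes in RNA. Every deposited value was a whole number of reads within 0.1 of a read, and a value of 0.9 of a read was taken as 0 reads. A fit on counts had been planned for count tables. As the deposited unit was log2, each assay was fitted over the whole table with limma 3.58.1 (trend, two-sided, Benjamini-Hochberg) in R 4.3.3, and limma voom on the recovered reads served as an alternative. Chromatin windows needed a mean of 1 RPM, genes a mean log2 RPM of 0. Zeros stood at the deposited value. The fits were tested on simulated data. Alternatives were scaling, filter, a pseudocount of 0.5 RPM, voom, a replicate block, the ratio to input and leaving out each library. All 10 genes are named, and of 25 other genes those called, the largest change each way per assay and some uncalled genes of undifferentiated cells. Members and lists were chosen with earlier results of these data known. H3K9me3 libraries were made with another kit than the rest, per the labels, and were not compared with knockout cells.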

Additional observations from a re-analysis of the deposited data

How the results depend on the processing

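Windows with lower H3K4me3 (1546) numbered 1010 without the filter, 595 under quantile normalization, 2587 with limma voom, 4037 with the replicate block, 320 over input and 0 to 6889 without 1 library (894 without knockout replicate 1, 0 without either control library). Higher windows (8) numbered 55, 414, 112, 70 and 0 under the same settings, 642 under median centring and 2 to 128 without 1 library. Members called lower (1) were 0 without the filter, under median centring and over input, and 0 to 2 without 1 library, and members called higher (0) were 2 under quantile normalization, Nanos3 and Stra8. For H3K27me3, 202 windows were lower (0) under median centring and 7 with the replicate block, and 81, 3, 1206 and 7 were higher (38) under median centring, quantile normalization, the replicate block and over input, with 0 to 152 without 1 library. For RNA, 114, 20 and 195 genes were lower (44) under median centring, quantile normalization and the replicate block, and 28 to 3095 without 1 library. Without the filter and under the same 3 settings 210, 266, 50 and 1292 were higher (425), and 227 to 5257 without 1 library. Members with lower RNA (2) numbered 1 to 5 without 1 library, and with higher RNA (1) 0 under quantile normalization, 2 with the replicate block and 0 to 4 without 1 library. Input calls (0) were 1 lower and 1 higher under quantile normalization. Bivalent members (1) in knockout cells were 3 with thresholds lowered by 0.5 or on the mean of the pair, and members with neither mark (1) were 2 with thresholds raised by 0.5 or a pseudocount of 1 RPM. In control cells the bivalent member (1) was 0 with raised thresholds or a pseudocount of 1 RPM and 2 with lowered thresholds, and members with neither mark (2) were 1 with lowered thresholds or on the mean of the pair. Same-numbered libraries deviated together with r = 0.149 for H3K4me3, 0.0617 for H3K27me3 and 0.0866 for RNA, and the numbers are not stated to mark a shared line. With the replicate block, RNA was called lower at Kit (adjusted p = 0.00616) and higher at Nanos3 (adjusted p = 0.00623), which were not called without it. Signs that turned belonged to log2 changes that were not called as deposited. In H3K4me3 they were those of Sohlh1 (0.24 under median centring, 0.70 under quantile normalization, 0.029 with voom, 0.20 over input), and Esx1 and Ccnd2 (0.18 and 0.080 under quantile normalization). Without 1 library H3K4me3 ran from -0.0037 to 0.36 at Neurog3, from -0.0035 to 0.90 at Nanos3, from -0.039 to 0.33 at Lin28a (-0.015 without control replicate 1) and from -0.24 to 0.14 at Sohlh1. In H3K27me3 the values under median centring and quantile normalization were -0.41 and -0.39 at Neurog3, -0.58 and -0.56 at Lin28a, -0.16 and -0.10 at Kit and -0.053 and -0.092 at Dmrt1, and Lin28a was at -0.030 with the pseudocount and -0.045 with voom. Without 1 library H3K27me3 ran from -0.25 to 0.60 at Neurog3, from -0.69 to 0.70 at Lin28a (-0.18 without knockout replicate 1), from -0.23 to 1.08 at Kit, from -0.018 to 1.08 at Dmrt1 and from -0.57 to 2.59 at Esx1. In RNA, Sohlh1 turned to -0.0074 under median centring. The causes were not tested, except that a fit without a knockout library takes its spread from the control pair alone. Differences at windows of few reads were limited by depth.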
